A study of Mus musculus with 12 samples.

Results

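Enzyme families that oxidise, hydrolyse or conjugate foreign compounds were described in mouse lung: the cytochromes P450 (Cyp), flavin-containing monooxygenases (Fmo), aldehyde dehydrogenases (Aldh), cytosolic glutathione S-transferases of the alpha, mu, omega, pi and theta classes (Gst), UDP-glucuronosyltransferases (Ugt) and carboxylesterases (Ces). Genes were taken by symbol, a family prefix followed by a digit or, for Gst, by a class letter and a digit. Of 49585 genes that the authors deposited, 211 matched. Of these 83 reached the minimum of 1 CPM (reads of a gene, scaled by library size) in no fewer than 3 of the 12 libraries. The 83 are the genes described here. They comprised 30 of 120 Cyp genes, 5 of 7 Fmo, 19 of 21 Aldh, 17 of 21 Gst, 4 of 22 Ugt and 8 of 20 Ces, and 82 of them are protein coding. The remaining 128 fell short of the minimum, and 63 had no read in any library. At the edge, the third-highest library held 1.07 CPM of Gstm2-ps1 and 1.20 CPM of Cyp2c44 inside the minimum, and 0.983 CPM of Cyp3a13 and 0.819 CPM of Cyp27b1 outside it.

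The series holds poly-A RNA sequencing of whole lung from mice labelled Balb/cJ. Wild-type (WT) mice and mice with a knockout of Rgs4 (KO), whose product limits G protein signalling, were exposed to Aspergillus fumigatus (Af), a mould that elicits allergic airway inflammation, or to PBS, its control. The 4 groups WT_PBS (libraries 15, 16 and 17), WT_Af (18, 19 and 20), KO_PBS (9, 10 and 11) and KO_Af (12, 13 and 14) hold 3 libraries each, and values are listed below in that order of library number. The labels state neither age, nor how the knockout was made, nor the form, route, dose and duration of Af. They also do not say that each library is a separate animal, so that the p-values reflect only library-to-library spread, which may be technical.

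Most of these enzymes work in sequence. Cyp, Fmo, Aldh and Ces enzymes oxidise or hydrolyse a compound, and Gst and Ugt enzymes attach glutathione or glucuronic acid to the product. In the lung many of them are concentrated in club cells, the secretory cells of the small airways, where P450 enzymes activate inhaled toxicants such as naphthalene. Several members also have substrates of the body itself, among them retinal, oxysterols and leukotriene B4. Ahr, the aryl hydrocarbon receptor, induces the Cyp1 genes, and Nrf2 (gene Nfe2l2) induces many Gst genes and glutathione synthesis.

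Library totals were 20708884 to 30229446 reads, so that 3 reads, the limit that a count of 0 allows, corresponded to 0.0983 to 0.144 CPM. Rgs4 itself was at 20.7 to 25.8 CPM in WT_PBS, 42.7 to 48.8 CPM in WT_Af, and 0.571 to 1.47 CPM in the 6 KO libraries. Libraries WT_PBS 17 and KO_Af 12 stood apart by transcripts of squamous epithelium, with marker sums of 535 and 317 CPM against 2.31 to 36.8 CPM in the other 10. Markers of several lung cells moved with Af. The summed level of 12 club cell markers lay between 15257 and 18051 CPM in WT_PBS and between 9479 and 10285 CPM in WT_Af. In KO it lay between 17793 and 19463 CPM under PBS and between 7940 and 15273 CPM under Af. Of 10 alveolar type 1 markers 9 fell in each genotype, and 0 rose in WT and 1 in KO. Of 15 ciliated cell markers 12 fell and 1 rose in WT, and 10 fell and 2 rose in KO. Of 9 goblet cell markers 8 rose in WT and 9 in KO, and 0 fell in either. Marker counts, here and below, stand beside shares of all genes tested of 26.2% higher and 25.6% lower in WT. In KO those shares were 28.7% and 29.2%. Macrophage markers summed to 812 to 963 CPM in the 6 PBS libraries and 3723 to 5000 CPM in the 6 Af libraries. Markers of hepatocytes, the cells best known for these enzymes, summed to at most 10.1 CPM in any library. Library numbers run from 9 to 14 in KO and from 15 to 20 in WT, so that genotype and library number cannot be told apart. Inside each genotype the PBS libraries have the lower numbers, so exposure and library number cannot be told apart there either.

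Under Af the summed level of the 83 genes was less than it was under PBS by more than the spread between libraries. It was 10059.7 ± 889.6 CPM (SD, n = 3) in WT_PBS and 4603 ± 333 CPM in WT_Af, or 45.8% of the PBS level. KO_PBS held 10512 ± 84.1 CPM and KO_Af 4892 ± 596 CPM, or 46.5%. The P450 sum was the lowest relative to PBS, at 28.8% of its PBS level in WT and 28.9% in KO. Fmo sums stood at 37.3% and 36.2%, Ces sums at 43.3% and 45.3%, Aldh sums at 65.3% and 71.7%, Gst sums at 72.4% and 66.6%, and Ugt sums at 84.9% and 87.4%. In each family and genotype all 3 Af libraries lay below all 3 PBS libraries. In bulk lung, fewer cells of a type and less RNA per cell cannot be told apart, and the part of the marker shifts above in these sums was not tested.

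**Figure D1:**
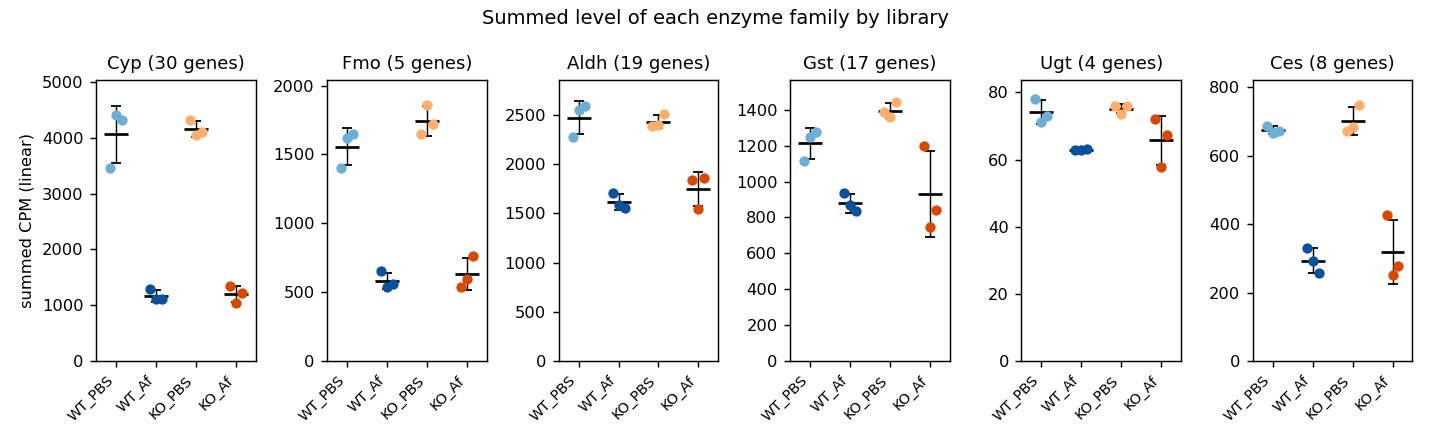
Summed CPM of each enzyme family in every library on linear axes from 0, with a panel per family and points for the 3 libraries of each group. Horizontal bars are group means and error bars are SD. The Cyp sum stood at 28.8% of its PBS level in WT under Af, and the Ugt sum at 84.9%.

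The sums rest on few genes. Cyp2f2 alone made up 23.9% of the total in WT_PBS, and the 8 most abundant genes (Cyp2f2, Fmo2, Aldh1a1, Aldh2, Ces1d, Cyp4b1, Gstm1 and Fmo1) made up 72.6%. By CPM the leading gene under Af was Aldh1a1, with 10.5% of the total in WT and 11.6% in KO. Per kilobase of exon, the scale on which genes can be compared, Cyp2f2 was highest in WT_PBS at 1185 CPM per kb. Gstm1 at 342, Cyp4b1 at 258, Ces1d at 251, Fmo2 at 196 and Aldh1a1 at 195 CPM per kb came next. Cyp2f2 stayed highest on this scale under Af, at 210 CPM per kb in WT_Af and 180 in KO_Af. Aldh1a1 stood at 97.7 and 115 CPM per kb there. Cyp2a5 went from rank 10 of 83 in WT_PBS to rank 54 in WT_Af on this scale.

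Gene by gene, 57 of the 83 changed with Af in WT (limma adjusted p under 0.05 over all 16126 genes tested): 14 rose and 43 fell. Over all genes tested the same comparison called 51.8%, with 26.2% higher and 25.6% lower. In KO 61 changed, 15 upward and 46 downward, against 57.9% of all genes, 28.7% higher and 29.2% lower. The median log2 fold change of the 83 was -0.51 in WT and -0.54 in KO, and over all genes tested it was -0.02 in both. A called fall of at least 2-fold, by fitted value, was seen in 25 of the 83 in WT and 23 in KO, where 5.98% and 7.67% of all genes fell as far. Rises of that size numbered 7 in each genotype, with 7.19% and 8.29% of all genes. All 3 Af libraries lay above all 3 PBS libraries for 15 of the 83 in each genotype, and below them for 46 in WT and 47 in KO. Over all genes tested 32.7% lay above and 32.7% below in WT, and 31.1% above and 31.7% below in KO. The 8 genes Ces1g, Ces2b, Ces2c, Cyp2ab1, Cyp2c44, Cyp4a12b, Gstm2-ps1 and Ugt8a reached the minimum only through PBS libraries and Cyp11a1 only through Af libraries, so the choice of members favours that direction for these 9 and the counts are a description. Without the libraries with squamous transcripts, 58 were called in WT and 67 in KO, against 55.0% and 58.5% of all genes.

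The WT and KO comparisons share no library, but they come from 1 fit with a shared estimate of spread, so their calls are not independent. Largely the same genes moved in both. In both genotypes 40 genes fell, which is 93.0% of those that fell in WT and 87.0% of those that fell in KO, and 14 genes rose. None of the 83 was called in opposite directions. Over all genes tested, 51.8% were called in WT and 57.9% in KO, and their overlap between genotypes was not counted. The overlap among the 83 is therefore not shown to be particular to them. Aldh3a1, Ces1f and Cyp2j6 were called lower in WT alone, Aldh7a1, Cyp2ab1, Cyp2u1, Cyp4f13, Gstm6 and Ugt8a lower in KO alone, and Cyp20a1 higher in KO alone. Several of these calls were lost in alternatives, with adjusted p of 0.0526 to 0.129 for Cyp20a1 (7 alternatives), 0.0701 to 0.155 for Cyp2u1 (6), 0.0613 to 0.093 for Cyp2ab1 (without KO_PBS 9, KO_PBS 11 or KO_Af 13), 0.0505 to 0.0601 for Aldh3a1 (without WT_PBS 16, WT_PBS 17 or WT_Af 20) and 0.0576 for Aldh7a1 (compared groups alone). For Cyp20a1 the single libraries were KO_PBS 9 or 10 and KO_Af 12 or 14, and for Cyp2u1 KO_PBS 9 or 11 and KO_Af 13 or 14. None of the genes called in 1 genotype alone passed the test of the difference between genotypes in response. The remaining 19 were called in neither. Across the 83 genes the log2 changes had a Pearson r of 0.953 between genotypes, as a description over genes that are not independent, and 75 had the same sign. Neither value was computed over all genes.

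**Figure D2:**
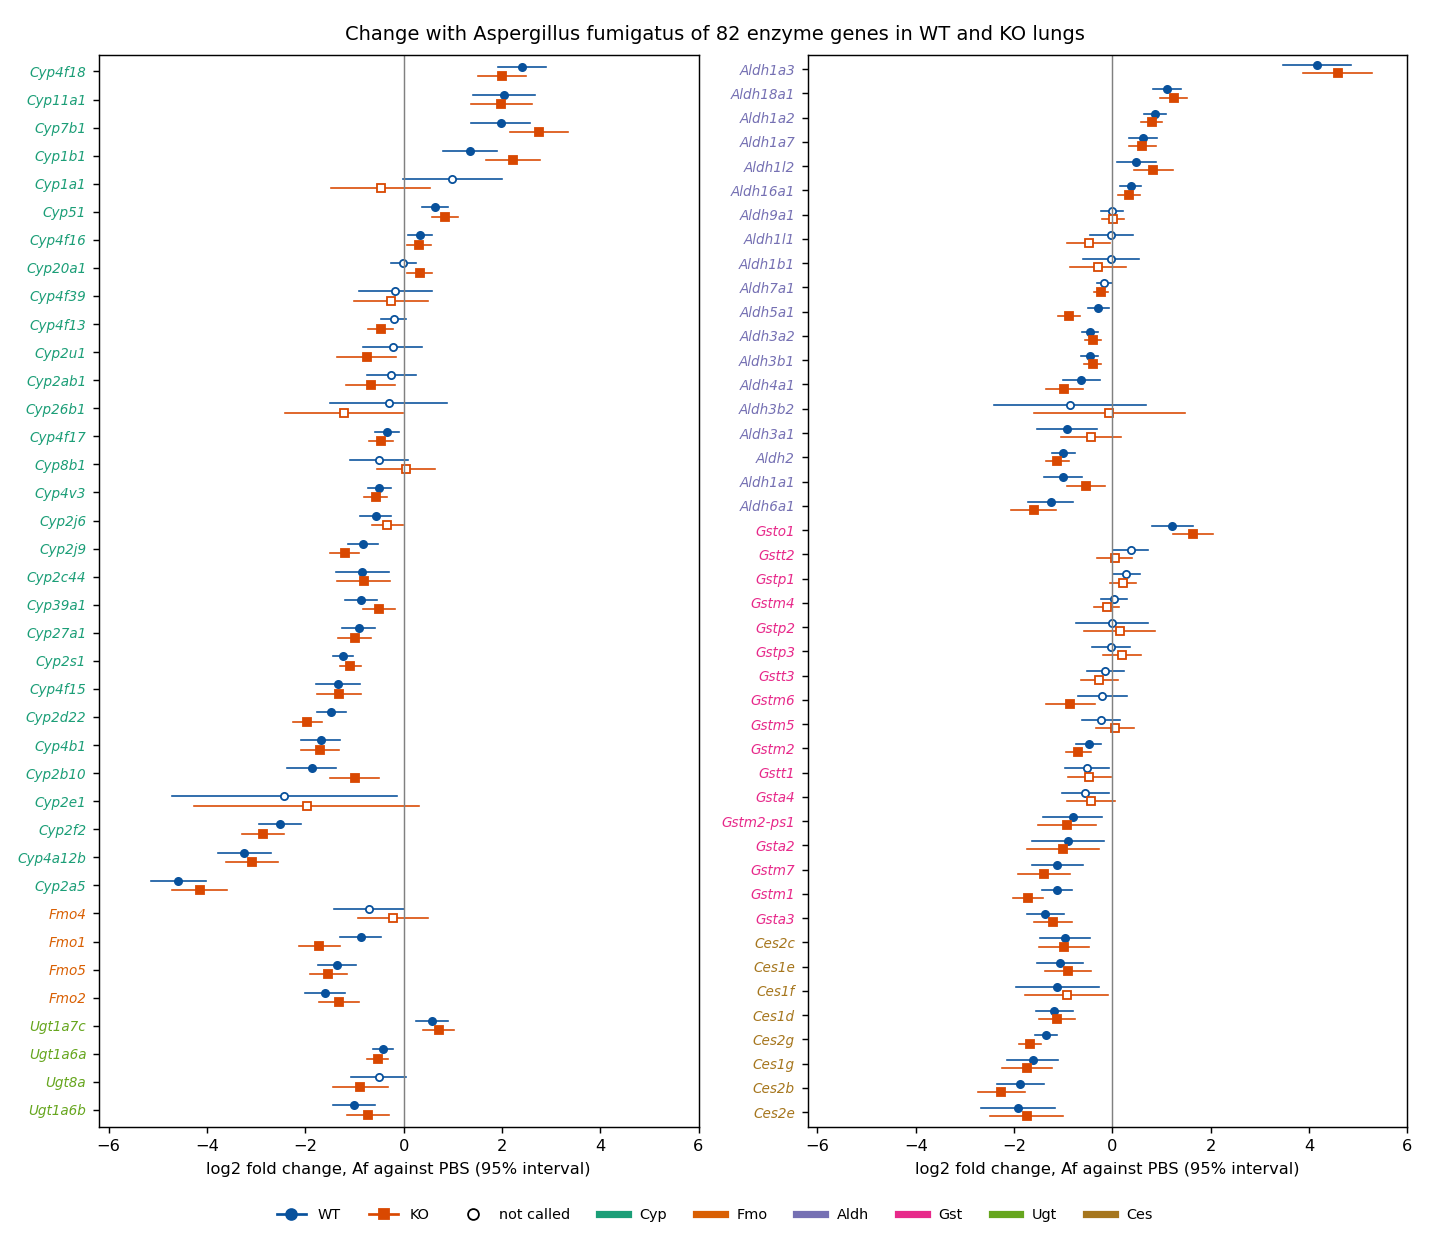
Log2 fold change with Af of each of 82 genes in WT (circles) and KO (squares), with 95% intervals from limma and open symbols where the adjusted p was 0.05 or more, ordered by WT change inside each family. Falls outnumber rises in every family of the plot, from Cyp2a5 at -4.58 to Aldh1a3 at 4.16 in WT.

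Among the P450 genes 15 of 30 fell in WT and 17 in KO, and 6 and 7 rose. Of all genes tested, 25.6% fell in WT and 29.2% in KO, and 26.2% and 28.7% rose. The largest falls were in CYP2 and CYP4 genes. Cyp2f2 (ENSMUSG00000052974.8, chromosome 7, 27119909 to 27133660, plus strand), which activates naphthalene in club cells, measured 2104, 2601 and 2492 CPM in WT_PBS, 535, 367 and 372 CPM in WT_Af, 2535, 2537 and 2684 CPM in KO_PBS, and 477, 274 and 343 CPM in KO_Af. Every Af library lay far below every PBS library, and Cyp2f2 fell 5.71-fold (log2 -2.51 ± 0.20 SE, adjusted p = 2.62e-06) in WT and 7.27-fold (log2 -2.86 ± 0.20 SE, adjusted p = 7.29e-07) in KO. Its neighbour Cyp2a5, the coumarin 7-hydroxylase that also oxidises nicotine, measured 132, 189.9 and 141 CPM in WT_PBS, 8.97, 4.98 and 4.49 CPM in WT_Af, 129, 113 and 105 CPM in KO_PBS, and 5.47, 4.64 and 8.60 CPM in KO_Af. The groups did not overlap, and the fall was 24.0-fold (log2 -4.58 ± 0.26 SE, adjusted p = 4.15e-07) in WT and 17.7-fold (log2 -4.15 ± 0.26 SE, adjusted p = 3.41e-07) in KO. Of the 12 club cell markers, 6 fell and 2 rose in each genotype, with a median log2 change of -0.37 in WT and -0.32 in KO. Scgb3a2 fell 8.43-fold in WT, from 404 ± 38.3 to 48.9 ± 15.0 CPM, and 8.68-fold in KO, and Sec14l3 fell 4.15-fold and 4.58-fold. The 2 that rose, named after their values were seen, were Reg3g (2.77-fold and 6.74-fold) and Nupr1 (1.52-fold and 1.76-fold). Scgb1a1, the most abundant club cell marker, named after its values were seen, fell 1.65-fold in WT, from 13798 ± 1191 to 8323 ± 397 CPM, and 1.68-fold in KO.

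Cyp2a5 and Cyp2f2 together span 298 kb on chromosome 7 and are shown as an example of neighbours that fell together. The 250 bases before each RefSeq start (GRCm38.p6), read 5′ to 3′ on the gene's strand, are given below. Neither window holds GCGTG, the core that Ahr binds, or TGACNNNGC, the core of the antioxidant response element that Nrf2 binds, on either strand, and therefore neither has letters in capitals.
Cyp2f2, chr7:27119705-27119954, plus strand: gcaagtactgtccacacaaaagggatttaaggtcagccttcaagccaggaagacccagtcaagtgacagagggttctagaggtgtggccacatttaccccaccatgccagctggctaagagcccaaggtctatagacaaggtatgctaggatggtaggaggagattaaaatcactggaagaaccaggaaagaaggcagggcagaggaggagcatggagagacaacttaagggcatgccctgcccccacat
Cyp2a5, chr7:26835089-26835338, plus strand: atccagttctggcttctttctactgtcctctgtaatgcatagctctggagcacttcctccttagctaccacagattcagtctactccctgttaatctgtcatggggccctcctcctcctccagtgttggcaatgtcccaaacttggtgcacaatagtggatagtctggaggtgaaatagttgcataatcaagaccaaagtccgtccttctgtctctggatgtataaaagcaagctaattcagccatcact

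Cyp4b1, a P450 of lung epithelium that activates the toxicant 4-ipomeanol, measured 399, 688 and 659.9 CPM in WT_PBS, 176, 171 and 179.6 CPM in WT_Af, 659, 599.5 and 556 CPM in KO_PBS, and 199.8, 157 and 203 CPM in KO_Af. All 6 Af libraries were below the lowest PBS library, WT_PBS 15, and the fall was 3.22-fold (log2 -1.69 ± 0.18 SE, adjusted p = 2.13e-05) in WT and 3.25-fold in KO. Cyp2b10, the phenobarbital-inducible P450, fell 3.65-fold in WT (295 to 81.3 CPM) and 2.0-fold in KO (221 to 109 CPM). That difference in response did not pass the interaction test (log2 0.87, adjusted p = 0.34). Cyp2s1, next to Cyp2b10 on chromosome 7, fell 2.35-fold and 2.12-fold, and Cyp2d22 2.78-fold and 3.88-fold, in WT and KO. Cyp27a1 and Cyp39a1, which hydroxylate sterols, also fell in both genotypes, with log2 changes of -0.91 and -0.87 in WT. Cyp4a12b went from 89 to 172 reads in the WT_PBS libraries to 1 to 7 reads in WT_Af, and from 100 to 149 reads in KO_PBS to 1 to 8 in KO_Af. Its log2 change of -3.24 in WT depends on the pseudocount of 0.5 and was -4.66 with 0.1. Cyp4a12b reached the minimum only through PBS libraries, which favours a fall. Of its transcript 49.4% by 50-base words is shared with other genes, mainly Cyp4a12a, as is 40.8% of Cyp2a5, so reads could have been split between the copies.

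The P450 genes that rose in both genotypes were Cyp4f18, Cyp7b1, Cyp1b1, Cyp11a1, Cyp51 and Cyp4f16. Cyp4f18, which inactivates leukotriene B4 in neutrophils, measured 6.25, 10.7 and 7.37 CPM in WT_PBS, 63.0, 33.2 and 40.8 CPM in WT_Af, 13.5, 15.7 and 15.7 CPM in KO_PBS, and 69.9, 56.6 and 58.3 CPM in KO_Af. Every Af library exceeded every PBS library, with a rise of 5.30-fold (log2 2.41 ± 0.22 SE, adjusted p = 7.71e-06) in WT and 4.01-fold (log2 2.0 ± 0.22 SE, adjusted p = 2.01e-05) in KO. Cyp7b1, the oxysterol 7-alpha-hydroxylase, measured 12.4, 5.12 and 6.19 CPM in WT_PBS, 24.4, 38.6 and 29.7 CPM in WT_Af, 5.15, 5.02 and 4.84 CPM in KO_PBS, and 29.3, 44.1 and 37.8 CPM in KO_Af. Its groups did not overlap either, and it rose 3.92-fold (log2 1.97 ± 0.27 SE, adjusted p = 1.25e-04) in WT and 6.73-fold in KO. Cyp11a1, the side-chain cleavage enzyme that starts steroid synthesis, stood at 0.741 CPM in WT_PBS and 4.50 CPM in WT_Af, a rise of 4.12-fold, and rose 3.97-fold in KO. It reached the minimum only through Af libraries, which favours a rise. Cyp51, the lanosterol demethylase of cholesterol synthesis, rose 1.56-fold and 1.79-fold. The small rise of Cyp4f16 (0.34 and 0.31 on the log2 scale) lost its call without any of several single libraries (WT_PBS 16 or 17, WT_Af 18 or 20, each KO_PBS library, KO_Af 13), with adjusted p of 0.0519 to 0.099. Of 12 macrophage markers 7 rose in each genotype, and 3 fell in WT and 2 in KO. Of 6 eosinophil markers 4 rose and 0 fell in each genotype. These shifts moved with the rises above, and their part in the rises was not tested.

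Of the CYP1 genes, the classical targets of Ahr, Cyp1b1 passed the test with Af and Cyp1a1 did not. Cyp1b1 measured 12.8, 18.9 and 20.0 CPM in WT_PBS, 30.6, 53.7 and 51.3 CPM in WT_Af, 14.1, 11.3 and 12.4 CPM in KO_PBS, and 49.6, 52.2 and 85.9 CPM in KO_Af, without overlap between exposures, and rose 2.54-fold (log2 1.35 ± 0.25 SE, adjusted p = 0.00105) in WT and 4.67-fold (log2 2.22 ± 0.25 SE, adjusted p = 2.34e-05) in KO. Cyp1a1 measured 11.6, 11.9 and 14.3 CPM in WT_PBS, 27.7, 22.7 and 26.3 CPM in WT_Af, 7.43, 16.9 and 7.82 CPM in KO_PBS, and 2.60, 9.01 and 14.3 CPM in KO_Af. In WT all 3 Af libraries were above all 3 PBS libraries, at a change of log2 0.99 that missed the threshold (adjusted p = 0.0905), while in KO the exposures overlapped. Among the alternatives for the WT value, the adjusted p ran from 4.99e-04 to 0.178, and it passed with array weights, in a fit of the compared groups alone, with DESeq2 and without the libraries with squamous transcripts. Ahr itself had log2 -0.07 in WT (adjusted p = 0.705) and fell 1.72-fold in KO (log2 -0.78, adjusted p = 9.90e-04).

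Both CYP1 genes carry the Ahr core GCGTG in the 250 bases before their RefSeq start (GRCm38.p6), shown here with the match in capitals. In Cyp1b1 it lies on the opposite strand and reads CACGC. Among all RefSeq promoters, 28.2% of 32851 windows of this length held GCGTG on either strand. Of the 71 windows of the 61 members found among them, 31.0% did, close to that background. Counted by gene, with a match in any of its windows, 30.85% of all 27025 genes and 34.4% of the 61 members held GCGTG. By gene it was present in 5 of 11 members that rose in both genotypes, 7 of 28 that fell in both and 6 of 16 called in neither.
Cyp1a1, chr9:57697363-57697612, plus strand: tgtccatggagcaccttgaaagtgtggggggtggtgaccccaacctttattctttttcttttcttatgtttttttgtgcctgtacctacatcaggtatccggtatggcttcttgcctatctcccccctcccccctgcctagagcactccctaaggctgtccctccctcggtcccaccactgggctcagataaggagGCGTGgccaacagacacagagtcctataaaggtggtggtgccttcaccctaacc
Cyp1b1, chr17:79715062-79715311, minus strand: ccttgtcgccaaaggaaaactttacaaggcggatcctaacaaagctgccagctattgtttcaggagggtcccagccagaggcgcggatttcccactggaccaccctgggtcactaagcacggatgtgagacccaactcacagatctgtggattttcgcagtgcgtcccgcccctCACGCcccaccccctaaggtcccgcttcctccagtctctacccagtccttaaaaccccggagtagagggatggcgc

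Cyp2e1, which oxidises ethanol and acetone, spread widely inside each group. It measured 23.3, 105 and 201 CPM in WT_PBS, 25.2, 31.2 and 3.48 CPM in WT_Af, 118, 19.7 and 53.3 CPM in KO_PBS, and 42.0, 4.04 and 10.6 CPM in KO_Af. The exposures overlapped in both genotypes, and the differences of log2 -2.43 ± 1.05 SE in WT and -1.97 ± 1.05 SE in KO did not pass the test (adjusted p = 0.07 and 0.126). Summed levels of 9 adipocyte markers moved with it, at 90.3, 383 and 772 CPM in WT_PBS, 144, 387 and 28.0 CPM in WT_Af, 486, 96.8 and 520.4 CPM in KO_PBS, and 264, 23.6 and 57.7 CPM in KO_Af. Inside 3 of the 4 groups the libraries had the same order by Cyp2e1 and by these markers, KO_PBS being the exception. The part of fat in the sample in this spread was not tested. Without WT_PBS 15 the WT change was log2 -3.30 (adjusted p = 0.0263), and without KO_Af 12 the KO change was -2.83 (adjusted p = 0.0427). Over the alternatives the adjusted p ran from 0.0213 to 0.264 in WT and from 0.0158 to 0.369 in KO, and the log2 change from -3.30 to -1.48 in WT and from -2.83 to -1.22 in KO.

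**Figure D3:**
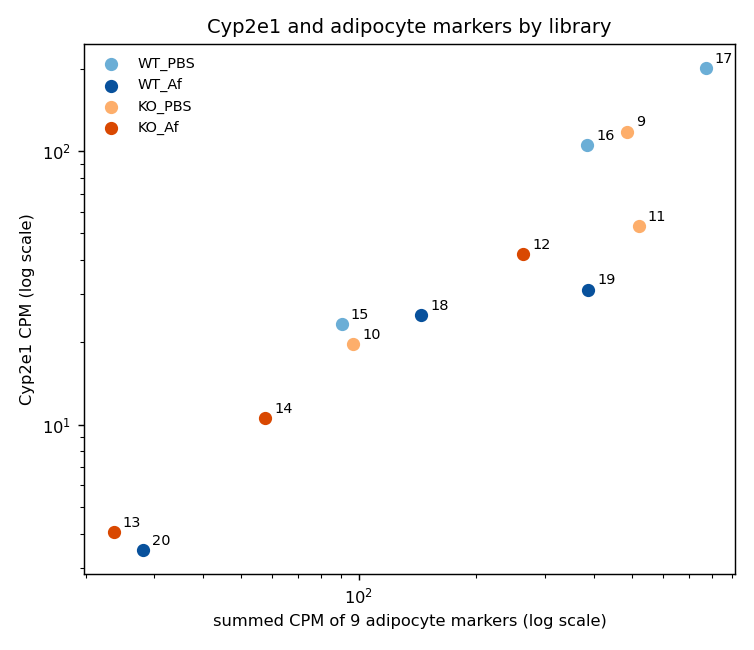
Cyp2e1 CPM against the summed CPM of 9 adipocyte markers in the 12 libraries, both on log scales, with library numbers beside the points and colours for the groups. Library 17 has the highest values on both axes (201 and 772 CPM), and libraries 13 and 20 have the lowest.

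Of the 5 flavin-containing monooxygenases, which add oxygen to nitrogen and sulphur atoms, Fmo1, Fmo2 and Fmo5 fell in both genotypes. Fmo2, the predominant form of lung, measured 1057, 1034 and 1201 CPM in WT_PBS, 380.4, 335 and 368 CPM in WT_Af, 859.8, 1053 and 929.7 CPM in KO_PBS, and 306, 323 and 545 CPM in KO_Af. The lowest PBS library was well above the highest Af library, KO_Af 14, and the fall was 3.04-fold (log2 -1.60 ± 0.19 SE, adjusted p = 3.81e-05) in WT and 2.50-fold in KO. Fmo5 fell 2.56-fold and 2.90-fold. Fmo4 was not called (log2 -0.70 and -0.21). Fmo1, described with the genotypes below, fell 1.83-fold in WT and 3.28-fold in KO.

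Aldehyde dehydrogenases moved both ways, with 6 of 19 higher (31.6%) and 8 lower (42.1%) in each genotype. The shares of all genes were 26.2% higher and 25.6% lower in WT, and 28.7% and 29.2% in KO, so the rises were near that background. The 3 enzymes Aldh1a1, Aldh1a2 and Aldh1a3, which make retinoic acid from retinal, did not move together. Aldh1a1, the most abundant, measured 913, 1031 and 949 CPM in WT_PBS, 550.5, 435 and 461 CPM in WT_Af, 791, 798 and 809.9 CPM in KO_PBS, and 666, 393 and 637 CPM in KO_Af. Its groups did not overlap, and it fell 2.01-fold (log2 -1.0 ± 0.17 SE, adjusted p = 6.09e-04) in WT and 1.45-fold (log2 -0.54 ± 0.17 SE, adjusted p = 0.0198) in KO. The KO call was lost without KO_PBS 11 (adjusted p = 0.05) and in a limma fit of the compared groups alone (adjusted p = 0.0582). Aldh1a3 measured 1.90, 3.99 and 3.26 CPM in WT_PBS, 42.1, 75.9 and 71.3 CPM in WT_Af, 3.06, 2.71 and 3.38 CPM in KO_PBS, and 50.7, 104 and 114 CPM in KO_Af. Every Af library exceeded every PBS library many times over, and it rose 17.9-fold (log2 4.16 ± 0.32 SE, adjusted p = 2.16e-06) in WT and 24.0-fold (log2 4.58 ± 0.32 SE, adjusted p = 7.60e-07) in KO, the largest rise among the 83 genes in each genotype. Aldh1a2 rose 1.82-fold in WT (36.9 to 67.4 CPM) and 1.74-fold in KO. Aldh1a7, the neighbour and close relative of Aldh1a1, rose 1.54-fold and 1.53-fold, opposite to Aldh1a1.

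Mitochondrial members differed as well. Aldh2, which oxidises acetaldehyde, fell 2.0-fold (log2 -1.0 ± 0.11 SE, adjusted p = 2.24e-05) in WT (791 to 393 CPM) and 2.17-fold in KO. Aldh6a1, the methylmalonate semialdehyde dehydrogenase of valine breakdown, measured 83.9, 117 and 132 CPM in WT_PBS, 41.9, 60.7 and 36.8 CPM in WT_Af, 117, 113 and 126 CPM in KO_PBS, and 49.4, 32.2 and 36.4 CPM in KO_Af. Its Af libraries were all below its PBS libraries, and it fell 2.39-fold in WT and 3.04-fold in KO. In contrast Aldh18a1, which makes the precursor of proline, rose 2.16-fold and 2.37-fold, and Aldh1l2, a mitochondrial folate enzyme, rose 1.40-fold and 1.78-fold. The WT call of Aldh1l2 was lost without WT_PBS 15 or 16 or WT_Af 19 or 20 (adjusted p = 0.0766 to 0.151). Aldh9a1 had log2 -0.02 in WT and 0.00 in KO and was not called.

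**Figure D4:**
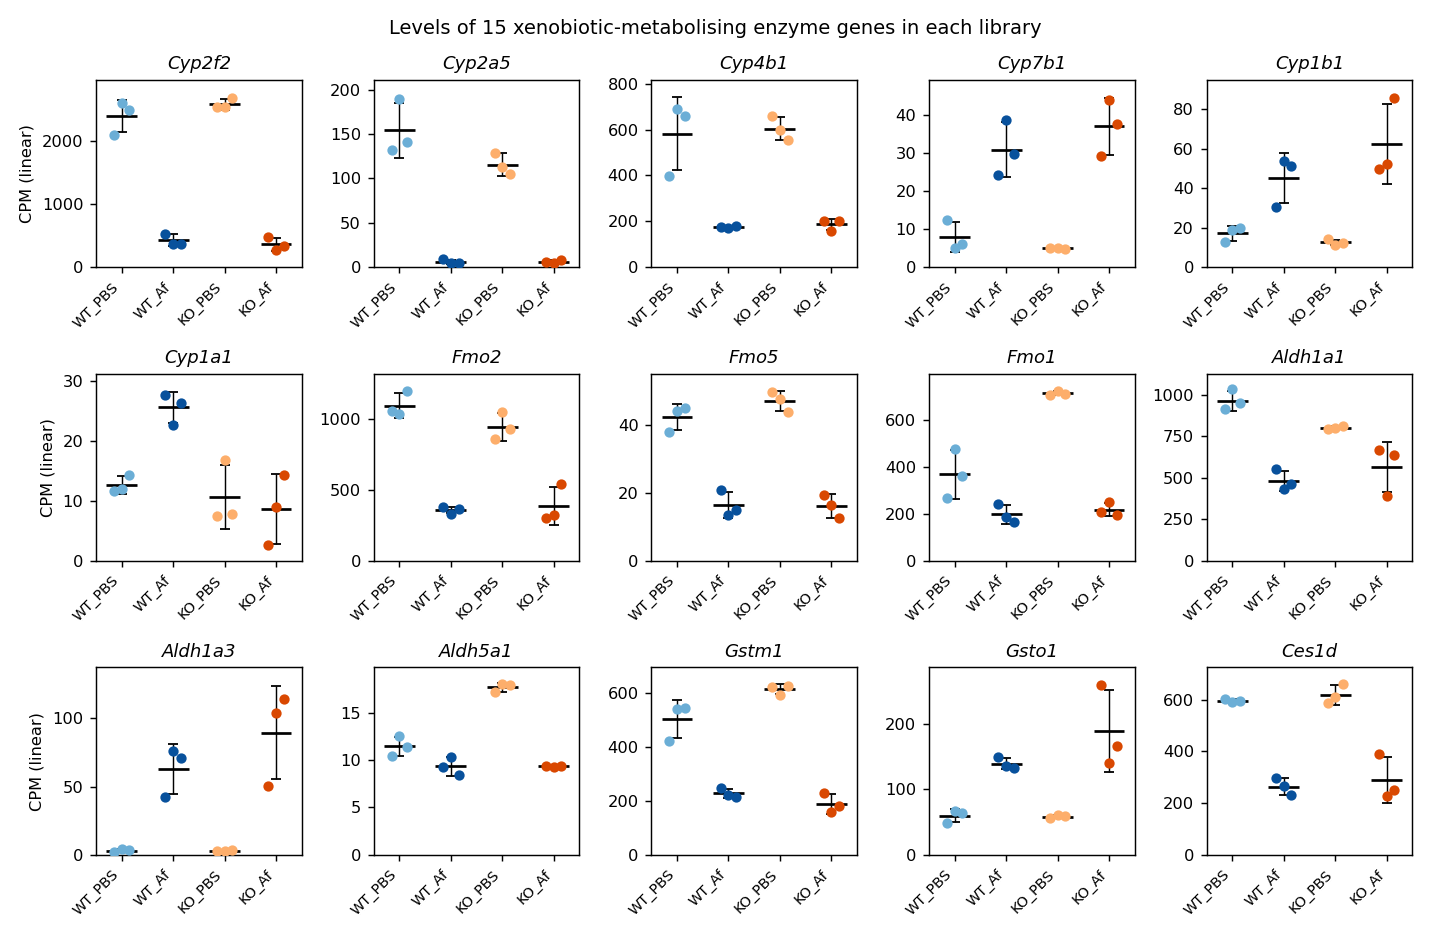
CPM of 15 genes in every library on linear axes from 0, with group means as bars and SD as error bars. Cyp2f2, Cyp2a5, Fmo2 and Ces1d lie lower in all 6 Af libraries, and Aldh1a3, Cyp7b1, Cyp1b1 and Gsto1 lie higher.

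Among 17 glutathione S-transferases 1 rose (5.88%) and 6 fell (35.3%) in WT, and 1 rose and 7 fell (41.2%) in KO. The shares of all genes were 26.2% higher and 25.6% lower in WT, and 28.7% and 29.2% in KO. Gstm1, the most abundant, measured 423, 543 and 545 CPM in WT_PBS, 247, 223 and 214 CPM in WT_Af, 623, 592 and 626 CPM in KO_PBS, and 230.1, 159 and 179.5 CPM in KO_Af. All Af libraries were below all PBS libraries, and it fell 2.19-fold (log2 -1.13 ± 0.14 SE, adjusted p = 5.45e-05) in WT and 3.27-fold (log2 -1.71 ± 0.14 SE, adjusted p = 1.92e-06) in KO. Gsta3, an alpha class transferase that detoxifies aflatoxin epoxide in mice, measured 65.3, 78.5 and 80.3 CPM in WT_PBS, 30.0, 27.9 and 28.0 CPM in WT_Af, 76.5, 79.2 and 81.9 CPM in KO_PBS, and 42.3, 23.6 and 39.4 CPM in KO_Af. It fell 2.57-fold and 2.31-fold, again without overlap. Gsto1, the omega class enzyme with thioltransferase activity, was the one that rose. It measured 48.6, 67.3 and 63.4 CPM in WT_PBS, 149, 136 and 132 CPM in WT_Af, 55.5, 60.9 and 59.0 CPM in KO_PBS, and 259, 141 and 167 CPM in KO_Af, every Af library above every PBS library, and rose 2.33-fold (log2 1.22 ± 0.19 SE, adjusted p = 2.66e-04) in WT and 3.11-fold (log2 1.63 ± 0.19 SE, adjusted p = 2.48e-05) in KO. Gstp1, the pi class enzyme, had log2 0.28 in WT and 0.21 in KO and did not pass the test (adjusted p = 0.072 and 0.157), and none of the 3 theta class genes was called in either genotype. Gstp1 and Gstp2 share 62.3% and 72.6% of their transcripts' 50-base words with other genes, so their separate levels are uncertain, as are those of Gsta2 (64.2%) and Gstm2-ps1 (46.9%).

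The antioxidant response element core TGACNNNGC was searched in the same windows on both strands. Its last bases are the first of GCGTG, so the motifs can overlap. It was in 10.2% of all 32851 windows and in 9.86% of the 71 windows of members. Gsta3, which fell, holds it, in capitals below, and Gsto1, which rose, holds neither core. The pair is shown to set those changes beside the letters, and a missing match says nothing about the factor.
Gsta3, chr1:21240335-21240584, plus strand: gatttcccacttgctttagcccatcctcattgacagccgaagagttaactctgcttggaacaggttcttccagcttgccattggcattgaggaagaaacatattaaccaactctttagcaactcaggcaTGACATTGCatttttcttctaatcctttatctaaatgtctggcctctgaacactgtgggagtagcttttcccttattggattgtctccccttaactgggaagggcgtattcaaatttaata
Gsto1, chr19:47854723-47854972, plus strand: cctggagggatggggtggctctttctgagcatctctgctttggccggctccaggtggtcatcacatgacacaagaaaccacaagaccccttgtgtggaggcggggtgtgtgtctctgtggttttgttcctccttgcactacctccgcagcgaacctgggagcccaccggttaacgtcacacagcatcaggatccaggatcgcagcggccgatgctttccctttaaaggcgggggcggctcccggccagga

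Carboxylesterases, which split esters and amides, fell as a family: 8 of 8 in WT and 7 of 8 in KO, where 25.6% and 29.2% of all genes fell. Ces1d, by far the most abundant, measured 603, 589 and 592 CPM in WT_PBS, 297, 264 and 229.9 CPM in WT_Af, 585, 608 and 660.3 CPM in KO_PBS, and 390.4, 228 and 252 CPM in KO_Af. The highest Af library, KO_Af 12, was below every PBS library, and the fall was 2.27-fold (log2 -1.18 ± 0.17 SE, adjusted p = 1.69e-04) in WT and 2.19-fold (log2 -1.13 ± 0.17 SE, adjusted p = 1.72e-04) in KO. Ces2e measured 13.5, 5.90 and 5.67 CPM in WT_PBS, 2.40, 1.77 and 1.05 CPM in WT_Af, 6.72, 5.28 and 6.73 CPM in KO_PBS, and 2.44, 1.10 and 1.20 CPM in KO_Af and fell 3.78-fold and 3.35-fold. Ces2b, at 3.97, 4.90 and 3.26 CPM in WT_PBS, 1.15, 0.524 and 0.599 CPM in WT_Af, 4.80, 4.05 and 5.27 CPM in KO_PBS, and 0.787, 0.414 and 0.578 CPM in KO_Af, fell 3.66-fold and 4.79-fold. Ces2g fell 2.55-fold and 3.19-fold. The exception in KO, Ces1f, had log2 -0.93 (adjusted p = 0.0579), its groups overlapped in both genotypes, and its WT call was lost without WT_PBS 16 or 17 or WT_Af 18 or 20 (adjusted p = 0.0611 to 0.124). Ces1g, Ces2b and Ces2c reached 1 CPM in enough libraries only through PBS.

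Glucuronosyltransferases had 4 genes above the minimum. Of these, 3 are first exons of the Ugt1a locus on chromosome 1, which share their later exons. Ugt1a6a, the most abundant, measured 60.4, 53.5 and 53.7 CPM in WT_PBS, 42.8, 42.6 and 39.4 CPM in WT_Af, 55.9, 53.1 and 55.3 CPM in KO_PBS, and 44.0, 34.0 and 36.2 CPM in KO_Af and fell 1.34-fold and 1.44-fold. Ugt1a7c, at 13.3, 9.98 and 13.7 CPM in WT_PBS, 16.8, 17.6 and 21.2 CPM in WT_Af, 14.3, 15.8 and 14.2 CPM in KO_PBS, and 24.7, 21.1 and 28.4 CPM in KO_Af, rose 1.49-fold and 1.64-fold. Ugt1a6b, at 3.31, 6.25 and 4.06 CPM in WT_PBS, 1.92, 2.0 and 1.91 CPM in WT_Af, 4.80, 3.86 and 4.75 CPM in KO_PBS, and 2.91, 2.48 and 2.16 CPM in KO_Af, fell 2.0-fold and 1.65-fold. Exposure groups did not overlap for any of them. Shared sequence took up 38.9% of Ugt1a6a, 69.3% of Ugt1a7c and 80.7% of Ugt1a6b, and reads from the common exons had to be divided between them, so their separate directions are uncertain. Ugt8a, which makes galactosylceramide, measured 1.03, 1.56 and 1.61 CPM in WT_PBS, 1.25, 0.557 and 0.749 CPM in WT_Af, 1.03, 0.818 and 1.71 CPM in KO_PBS, and 0.511, 0.23 and 0.463 CPM in KO_Af. It fell 1.85-fold (log2 -0.88 ± 0.26 SE, adjusted p = 0.0117) in KO, a call that was lost without KO_PBS 11 (adjusted p = 0.0536). Ugt8a reached the minimum only through PBS libraries, which favours a fall.

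Genes of one family often lie side by side. With gaps under 500 kb the members formed 16 clusters. In the Ces1 cluster on chromosome 8 all 4 members fell in WT and 3 in KO, and in the Ces2 cluster on the same chromosome all 4 fell in both. Among all genes tested, 25.6% fell in WT and 29.2% in KO. Ces1g of the first cluster, and Ces2b and Ces2c of the second, reached the minimum only through PBS libraries, which favours a fall. On chromosome 3, the Gstm cluster had 3 of 6 lower in WT and 4 in KO, with log2 changes in WT from -1.13 to 0.03. Neighbours were called in opposite directions in the pair Aldh1a1 and Aldh1a7 on chromosome 19, and in the Ugt1a genes, whose separate directions are uncertain. The same held in the Cyp4f cluster of 5 genes on chromosome 17, where 2 fell and 1 rose in WT. There the WT calls of Cyp4f16, which rose, and Cyp4f17, which fell, were each lost in 6 alternatives.

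The study's other question is what loss of Rgs4 changes. Under PBS, 2 of the 83 genes differed between KO and WT, Fmo1 and Aldh5a1, both higher in KO, where 3.55% of all genes tested were called (1.9% higher). Fmo1 measured 269, 478 and 360.2 CPM in WT_PBS, 243, 186 and 167 CPM in WT_Af, 706, 725 and 711 CPM in KO_PBS, and 208, 251 and 197 CPM in KO_Af. All 3 KO_PBS libraries were above every WT_PBS library, and the spread was narrower in KO_PBS, a difference of 1.99-fold (log2 0.99 ± 0.19 SE, adjusted p = 0.017). Under Af the genotypes overlapped (log2 0.15, adjusted p = 0.763), and the interaction did not pass the test (log2 -0.84, adjusted p = 0.262). The call under PBS was lost without WT_PBS 17 or without any one KO_PBS library (adjusted p = 0.0586 to 0.0808). Fmo1 lies 6.87 Mb from Rgs4 on chromosome 1, so an effect of losing Rgs4 and a linked allele carried along with the knockout cannot be told apart. Fmo2 and Fmo4, its neighbours in the same cluster, had log2 differences of -0.21 and -0.29 and were not called.

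Aldh5a1, the succinate semialdehyde dehydrogenase that ends GABA breakdown, measured 10.5, 12.5 and 11.3 CPM in WT_PBS, 9.21, 10.3 and 8.42 CPM in WT_Af, 17.1, 18.0 and 17.9 CPM in KO_PBS, and 9.32, 9.28 and 9.37 CPM in KO_Af. KO_PBS stood above the other 9 libraries, which lay between 8.42 and 12.5 CPM, and the difference under PBS was 1.53-fold (log2 0.61 ± 0.10 SE, adjusted p = 0.00924). Under Af the means of both genotypes were 9.32 CPM. The call under PBS was lost without KO_PBS 10 (adjusted p = 0.0554). Averaged over exposures Aldh5a1 was the 1 gene of the 83 called, at log2 0.31 ± 0.07 SE (adjusted p = 0.0499), against 2.16% of all genes. That call was lost in most alternatives, among them leaving out any library but KO_Af 12 or 13 (adjusted p = 0.0559 to 0.128). With Af it fell 1.22-fold in WT and 1.85-fold in KO, and the interaction had log2 -0.61 (limma adjusted p = 0.147, DESeq2 adjusted p = 0.021, and 0.0116 to 0.359 over the alternatives). The WT fall was lost without WT_PBS 16 or 17 or WT_Af 18 or 20 (adjusted p = 0.0722 to 0.132).

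Cyp4f18 was 1.84-fold higher in KO_PBS than in WT_PBS without overlap, and narrowly missed the threshold (log2 0.88, adjusted p = 0.0559). Without WT_PBS 16 it passed, at an adjusted p of 0.0307, and over the alternatives the adjusted p ran from 0.00949 to 0.184. Under PBS the KO libraries lay above all WT libraries for 15 of the 83 genes and below for 4, where 17.4% and 15.7% of all genes tested did so. The count of 15 is near the share of all genes. Of these 15, 6 are among the 17 Gst genes (Gstm1, Gstm2, Gstm6, Gstp1, Gstt2 and Gstt3), none of them called, a family picked out after the values were seen.

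Under Af limma called none of the 83 genes between genotypes, where 0.0868% of all genes were called. At an unadjusted p under 0.05 there were 4, against 11.2% of all genes, edgeR called 0 and DESeq2 1, where DESeq2 called 1.17% of all genes. That 1 was Cyp1a1, whose 3 WT_Af libraries held 22.7 to 27.7 CPM and whose 3 KO_Af libraries held 2.60 to 14.3 CPM. The fitted difference was log2 -1.78 ± 0.46 SE (limma adjusted p = 0.252, DESeq2 adjusted p = 0.044, and 0.044 to 0.781 over the alternatives), and without KO_Af 12, the lowest library and one of those with squamous transcripts, it was -1.13. KO groups lay above WT_Af without overlap for Cyp20a1, Cyp4f16 and Ugt1a6b and below for Cyp1a1 and Ugt8a, 3 and 2 of 83, with 7.66% and 6.1% of all genes. The interaction of genotype and Af called none of the 83 with limma, against 0.0062% of all genes, 8 having an unadjusted p under 0.05 (10.9% of all genes), 0 with edgeR and 1 (Aldh5a1) with DESeq2, which called 2.27% of all genes.

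**Figure D5:**
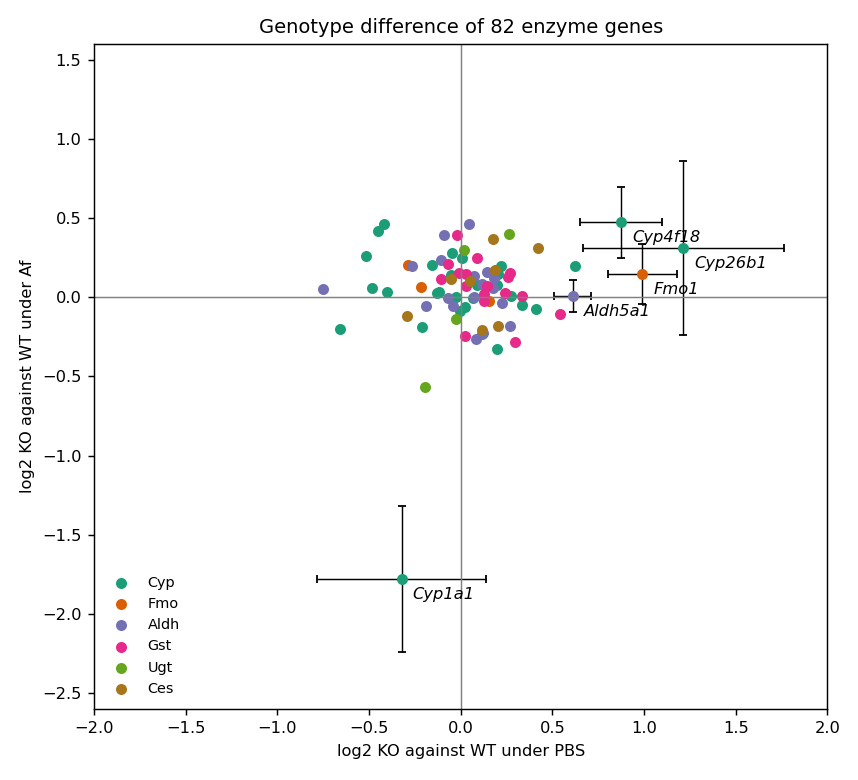
Log2 difference between KO and WT under PBS (horizontal) and under Af (vertical) for each of 82 genes, coloured by family, with SE bars on the 5 named genes. Fmo1 (0.99) and Aldh5a1 (0.61) lie to the right near a vertical value of 0, and Cyp1a1 lies alone at -1.78 under Af.

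Genes that serve these enzymes were taken from lists. Their counts, here and below, are to be read beside the shares of all genes tested. With Af these were 26.2% higher and 25.6% lower in WT, and 28.7% and 29.2% in KO. Of 13 partners of P450 and Fmo enzymes 3 rose and 3 fell in WT, and 4 and 3 in KO, numbers near these shares. Por, the reductase that passes electrons to every microsomal P450, fell 1.87-fold (log2 -0.90 ± 0.09 SE, adjusted p = 1.20e-05) in WT (370.1 to 197 CPM) and 2.10-fold in KO. Hmox1, which degrades heme, rose 3.70-fold and 5.44-fold. Alas1, the rate-limiting enzyme of heme synthesis, measured 424, 438 and 497 CPM in WT_PBS, 194, 191 and 174 CPM in WT_Af, 237, 235 and 244 CPM in KO_PBS, and 177, 156 and 207 CPM in KO_Af. It fell 2.42-fold in WT and 1.33-fold in KO, and KO_PBS stood between the WT_PBS and Af libraries, 1.89-fold below WT_PBS (log2 -0.92, adjusted p = 0.00162). The interaction did not pass (log2 0.86, adjusted p = 0.0814).

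Among 14 receptors and factors that control the families 1 rose and 6 fell in WT, and 2 and 8 in KO. Foxa1, a factor of airway epithelium, fell 1.58-fold and 1.64-fold, Ppara, the receptor that drives Cyp4a genes, 2.29-fold and 2.67-fold, and Cebpb rose 1.61-fold and 1.90-fold. Ahr, the 1 gene of the list that differed between genotypes, was 1.61-fold higher in KO_PBS (132, 125 and 126 CPM in KO_PBS against 80.5, 79.4 and 77.4 CPM in WT_PBS, adjusted p = 0.0313). Cyp1a1 and Cyp1b1 were not higher there, with log2 -0.32 and -0.42, neither of them called.

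Glutathione supply was read from 2 further lists. Gclc, Gclm and Slc7a11 are in both and are counted in each, and Hmox1 of the Nrf2 list is also among the partners above. Of 23 Nrf2 pathway genes 14 were higher and 1 lower in WT, and 13 were higher in KO. Gclc, the catalytic subunit that limits glutathione synthesis, measured 116, 102 and 91.9 CPM in WT_PBS, 256, 331 and 333 CPM in WT_Af, 81.6, 84.2 and 79.9 CPM in KO_PBS, and 196, 311 and 289.5 CPM in KO_Af, without overlap, and rose 2.96-fold (log2 1.56 ± 0.16 SE, adjusted p = 1.74e-05) in WT and 3.17-fold in KO. Srxn1 rose 1.62-fold and 1.62-fold. Nfe2l2 was not called with Af in either genotype (log2 -0.12 and 0.15). Of 22 genes of glutathione synthesis and recycling 11 rose in each genotype, and 3 fell in WT and 2 in KO, with Glrx 2.36-fold and Gpx2 2.75-fold higher in WT. Of 11 glutathione transferases of other families and their relatives, not all of them transferases, 4 rose in WT and 6 in KO, with 0 and 1 lower. Ptges and Alox5ap, which serve prostaglandin and leukotriene synthesis, were among those that rose (2.90-fold and 2.24-fold in WT).

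Of 40 other enzymes of foreign-compound metabolism tested, 5 rose and 14 fell in WT, and 8 and 14 in KO. Cbr2, the carbonyl reductase abundant in lung, went from 2748 ± 143 to 756 ± 223 CPM in WT and from 2732 ± 199 to 718 ± 261 CPM in KO, falls of 3.73-fold and 3.96-fold. Pon1, an esterase best known from liver, fell 6.37-fold and 6.07-fold, and the sulfotransferase Sult1d1 4.86-fold and 3.06-fold. Dhrs9, a dehydrogenase that makes retinal, the substrate of Aldh1a3, rose 3.39-fold and 4.70-fold.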

How the data were processed

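Mouse lung RNA, purified on a Qiagen kit, was made into poly-A selected TruSeq libraries, per the labels' protocols. The authors used cutadapt 1.18, STAR 2.7.6a and RSEM 1.3.0 and name the builds GRCm38 and GRCh38, per the submitters' processing notes, which do not say what each build was for. No source used here states whether counting used strand, so genes that overlap are uncertain. The authors deposited a linear signal for each gene in each library, which they name CPM with TMM (trimmed mean of M-values) scaling. All values (100%, tolerance 0.01) gave whole reads when divided by what a single read was worth in their library, so read counts were recovered. Identifiers matched GENCODE M21 (GRCm38) for 49326 genes, 99.5%, which gave coordinates and exon lengths.

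The 16126 genes that reached 1 CPM in 3 libraries were fitted as log2(CPM + 0.5), which understates changes of low genes, with limma 3.58.1 in R 4.3.3, a mean-variance trend, and 1 model over 4 groups. P-values were Benjamini-Hochberg adjusted over all 16126, with a threshold of 0.05, and the script was tested on simulated data. Fold changes are on that log2(CPM + 0.5) scale. Alternatives were pseudocounts of 0.1 and 1, other filters and scalings, no trend, array weights, the compared groups alone, each library left out, both libraries with squamous transcripts left out, and edgeR 4.0.16 and DESeq2 1.42.0 on the recovered counts. Shared sequence is the share of 50-base words of the longest transcript found in other genes. Promoters are from RefSeq (GRCm38.p6), where 61 of the 83 genes matched. Figures were drawn with matplotlib 3.10.9.

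The members and lists were chosen with earlier results of these data known. Within each family values in every library were given for the gene with the highest level per kilobase, the largest rise and fall past the threshold in each genotype, and any gene called between genotypes or in the interaction. Genes of other lists were limited to the 4 with the smallest p in WT or KO. Cyp4b1, Cyp1a1, Cyp1b1, Cyp2e1, Scgb1a1, Ahr, Alas1 in every library, Nfe2l2, Cbr2, Reg3g and Nupr1 were shown after their values were seen. The values of 1 gene of the families, which counts and sums include, are not reported here.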

Additional observations from a re-analysis of the deposited data

How the results depend on the processing

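With Af, the members called numbered 48 to 66 in WT (49 to 57 when any 1 library was left out) and 49 to 73 in KO (54 to 67) over all alternatives run, against 57 and 61. The lowest counts came with the 5 CPM filter, where 67 members were tested (71.6% and 73.1% of them called), and the highest with array weights, which called 67.1% and 72.1% of all genes. Of 121 called changes of single genes 98 kept their call in every alternative, 23 lost it in at least 1, and 0 reversed. Counts between genotypes were less steady. Under PBS the count of 2 became 10 with array weights, and 0 to 3 with 1 library left out (1 without WT_PBS 17, KO_PBS 9 or KO_PBS 11, 0 without KO_PBS 10). Under Af the count of 0 became 13 with array weights and 1 with DESeq2, and 0 to 1 with 1 library left out (1 without KO_Af 13). Averaged over exposures the count of 1 became 0 with a pseudocount of 0.1, without a filter, with TMM scaling undone, with DESeq2 size factors, with edgeR, and without both libraries with squamous transcripts, 3 with a filter of 5 CPM, 12 with array weights and 4 with DESeq2, and 0 to 3 with 1 library left out. The interaction count of 0 became 12 with array weights and 1 with DESeq2. Array weights raised the calls over all genes as well, to 16.4% under PBS, 13.7% under Af, 20.0% averaged and 9.93% in the interaction, and the cause was not tested. Genes with few reads depended on the pseudocount and test: Cyp4a12b ran from -2.51 (pseudocount 1) to -5.34 (DESeq2) in WT. No paired analysis was possible because every library number in the labels is unique to 1 library. Depth limits genes such as Cyp4a12b, with 1 to 8 reads in each Af library.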

Other observations

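Of 17 retinoid genes tested outside the families, 4 rose and 5 fell with Af in WT, and 3 rose and 6 fell in KO, numbers near the shares of all genes (26.2% higher and 25.6% lower in WT, 28.7% and 29.2% in KO). Crabp2, which carries retinoic acid to its receptor in the nucleus, was at 0 to 0.520 CPM in the 6 PBS libraries and 1.68 to 8.36 CPM in the 6 Af libraries, and it rose in both genotypes (limma adjusted p = 3.92e-04 in WT and 1.86e-04 in KO). Lrat, which stores retinol as esters, fell by 0.99 on the log2 scale in WT and by 1.52 in KO. The retinoic acid receptors Rarb and Rarg fell by 0.57 and 0.41 in WT and by 0.46 and 0.84 in KO. Cyp26b1, which degrades retinoic acid, was not called in either genotype.

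Of 14 transporters that move drugs and conjugates across membranes, 3 rose and 6 fell in each genotype, with a median log2 change of -0.27 in WT and -0.26 in KO. Among all genes tested, 26.2% rose and 25.6% fell in WT, and 28.7% and 29.2% in KO. Abcb1a, a P-glycoprotein that pumps drugs out of cells, fell by 1.27 on the log2 scale in WT and by 1.43 in KO. Slco4a1, an organic anion transporter, rose by 1.86 in WT and 1.66 in KO. Slco2b1 and Slco3a1 of the same family fell by 0.76 and 0.85 in WT and by 0.63 and 0.72 in KO.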
